A study of Homo sapiens with 7 samples.

Results

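The nuclear pore complex gene set held 32 of the 13142 genes in the deposited expression table. Its members were chosen by gene symbol, as genes named NUP followed by digits and 13 symbols of further pore subunits, and NUP210 was singled out because its level had been seen to be higher in every knockout clone. The NUP210 difference between knockout and wild type is therefore given as a description without a test. The other 31 members were chosen by name alone, and their tests are given. NUP210L was not analysed here.

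The cells were BHT-101, an established human line of anaplastic thyroid cancer, and ASH1L encodes a histone methyltransferase that acts on lysine 36 of histone H3. Total RNA was sequenced from 3 wild-type (WT) samples, WT1, WT2 and WT3, and from 4 ASH1L knockout (KO) clones with 1 library each. The reading frame ended after residue 413 of ASH1L in KO1 and after residue 610 in KO2 (the early-stop clones). It ended after residue 2129 in both alleles of KO3, and after residues 2169 and 2174 in the alleles of KO4 (the late-stop clones). Each knockout is 1 clone, no clone with intact ASH1L was among the samples, and clonal differences and the loss of ASH1L cannot be told apart within a clone. In the comparison of all clones with WT, what the clones share through editing and cloning cannot be told apart from the loss of ASH1L either.

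The nuclear pore complex is the channel through the nuclear envelope that all traffic between nucleus and cytoplasm uses. Its scaffold is built from a Y-shaped complex on both faces and an inner ring between them, anchored by a few membrane proteins, while subunits rich in phenylalanine-glycine repeats fill the channel and bind transport receptors. NUP210, also called gp210, spans the membrane with a short tail towards the pore and a large domain in the lumen of the nuclear envelope. Most subunits are made in all cells, whereas NUP210 is known to be present in some cell types and nearly absent from others.

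NUP210 (ENSG00000132182) lies on the minus strand of chromosome 3, from 13316235 to 13420309 in build hg38. The promoter windows of 3 members are shown, 300 bases around each transcript start, as given by RefSeq for GRCh38.p14. They are NUP210 itself, SEC13 as the member nearest to it on the chromosome, and NUP214 as the member whose levels followed NUP210 most closely over the libraries. Capitals mark the GC box GGGCGG on either strand, and the NUP214 window holds none.
NUP210, chr3:13420273-13420572, minus strand: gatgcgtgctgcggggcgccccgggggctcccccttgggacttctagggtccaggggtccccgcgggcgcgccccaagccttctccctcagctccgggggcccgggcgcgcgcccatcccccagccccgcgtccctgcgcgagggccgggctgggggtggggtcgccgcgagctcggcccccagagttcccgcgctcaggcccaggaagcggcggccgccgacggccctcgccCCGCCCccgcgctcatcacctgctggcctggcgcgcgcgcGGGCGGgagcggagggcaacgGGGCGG
SEC13, chr3:10321063-10321362, minus strand: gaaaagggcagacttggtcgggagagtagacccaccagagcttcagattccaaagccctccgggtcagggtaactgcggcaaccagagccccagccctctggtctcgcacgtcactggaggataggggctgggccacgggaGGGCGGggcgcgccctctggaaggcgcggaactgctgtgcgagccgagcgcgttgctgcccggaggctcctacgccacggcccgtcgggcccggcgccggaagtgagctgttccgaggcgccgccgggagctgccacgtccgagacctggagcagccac
NUP214, chr9:131125336-131125635, plus strand: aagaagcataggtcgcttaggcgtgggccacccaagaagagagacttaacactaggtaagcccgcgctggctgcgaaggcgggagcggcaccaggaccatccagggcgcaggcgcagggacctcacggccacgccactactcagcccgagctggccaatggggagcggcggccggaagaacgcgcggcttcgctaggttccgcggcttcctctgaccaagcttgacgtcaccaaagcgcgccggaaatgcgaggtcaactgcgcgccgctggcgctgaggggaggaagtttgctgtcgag
The NUP210 window had a GC content of 81.3%, higher than 98.4% of the 35114 RefSeq promoter windows of this length, and 42 CpG dinucleotides, more than 94.2% of them. The SEC13 window had a GC content of 69.7% with 29 CpG, and the NUP214 window 65.3% with 31 CpG. NUP210 held 3 GC boxes and SEC13 held 1.

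A window was found for 29 of the 32 members, and 6 motifs were searched on both strands. The ETS core CCGGAAG was in 12 of the 29 member windows (41.4%) and in 10.3% of all windows, and the NUP210 window did not hold it. GGGCGG was in 12 member windows (41.4%, against 45.0% of all), CCAAT in 11 (37.9% against 34.6%), the NRF1 core motif in 4 (13.8% against 5.8%), and CACGTG in 2 (6.9% against 7.3%). TATAAA was in 0 of the 29 windows (0.0% against 11.5% of all). These matches describe letters in the windows and were not tested as binding sites.

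Levels are log2 RPKM, the log2 of reads per kilobase of gene scaled to library size, as deposited, and a difference of 1 on this scale is a doubling of level. Reads worked back from these values gave libraries of 44.0 to 70.4 M reads. The least-read member value rested on 1383 reads (NUP35 in KO1), so that counting error was at most 2.69% for any member. ASH1L itself was at 3.34, 3.30 and 3.22 in WT1 to WT3, and at 2.69, 2.54, 2.42 and 3.74 in KO1 to KO4. The difference of -0.44 did not pass the test (limma adjusted p = 0.512). KO4 had the highest ASH1L RNA level of the 7 libraries, and transcript level does not report on a frameshift. Of the genes that define thyroid cells, NKX2-1, FOXE1, TG and TSHR were not among the table's rows, and PAX8 was low in every library, between -5.02 and -1.20. The keratin genes KRT8, KRT18 and KRT19 were high, between 5.64 and 7.79. The epithelial adhesion genes were lower: EPCAM was between 1.71 and 3.88, and CDH1 was between 0.47 and 0.78 in WT and at -5.86, 1.96, -2.20 and -2.83 in KO1 to KO4.

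NUP210 RNA was at 3.16, 3.14 and 3.32 log2 RPKM in WT1, WT2 and WT3, and at 4.68, 4.55, 4.65 and 5.20 in KO1, KO2, KO3 and KO4. In linear units these are 8.92, 8.83 and 10.0 RPKM in WT and 25.6, 23.3, 25.2 and 36.7 RPKM in the clones. The 4 clones lay above all 3 WT samples, and KO4 was the highest. The means were 3.21 ± 0.10 (SD, n = 3) in WT and 4.77 ± 0.29 (SD, n = 4) in KO, a difference of 1.56 ± 0.17 (SE) on the log2 scale or 2.95-fold. By clone the fold difference from the WT mean was 2.77, 2.53, 2.72 and 3.97 in KO1 to KO4. These levels rested on 4114 to 4885 reads per WT library and 9053 to 21113 reads per clone. In bulk RNA, a change in the number of cells that express a gene and a change in the RNA per cell cannot be told apart.

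**Figure D1:**
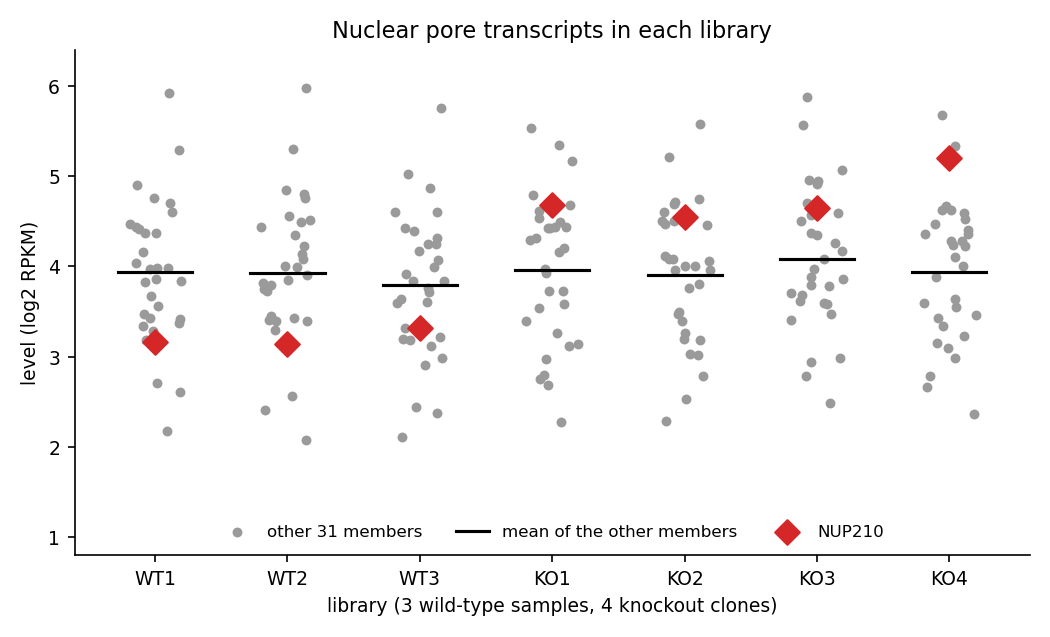
Levels of NUP210 and the other pore genes in each library, as log2 RPKM, with WT and KO libraries marked. NUP210 was between 3.14 and 3.32 in the 3 WT samples and between 4.55 and 5.20 in the 4 clones.

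The clones with early and late stops were also compared, a contrast other than the one that singled out NUP210. Because NUP210 was chosen for being higher in every clone, its likeness across the clones is not independent of that choice. NUP210 was 0.31 ± 0.20 (SE) higher on the log2 scale in the 2 late-stop clones than in the 2 early-stop clones, which did not pass the test (limma adjusted p = 0.990). KO3 was within the range of the early-stop clones and KO4 was above it. None of the 31 other members was called in this comparison either, with 0 at an unadjusted p under 0.05, where percent called over all 11154 tested genes was 0 and 436 genes had an unadjusted p under 0.05. With voom on the worked-back reads the members called were 0 as well.

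In wild-type cells NUP210 was among the lower members of the set. The highest level in WT was that of NUP205 (59.1 RPKM on average), a large inner-ring subunit, ahead of NDC1 (36.9 RPKM), SEC13 (29.3 RPKM) and NUP98 (26.4 RPKM). NUP210 stood 27th of 32 at 9.24 RPKM, and its neighbours in that order, RANBP2 at 9.90 RPKM and NUP50 at 8.75 RPKM, did not differ from it beyond the spread of the WT samples. NUP214 (5.95 RPKM), POM121 (5.52 RPKM) and POM121C (4.34 RPKM) were lowest. By the clones' mean NUP210 was 4th, behind NUP205, NDC1 and NUP188.

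Set against the other 31 members within each library, NUP210 moved from below their mean to above it. Its log2 level minus their mean was -0.78, -0.79 and -0.47 in WT1 to WT3 and 0.72, 0.64, 0.57 and 1.26 in KO1 to KO4. Every WT value was below 0 and every clone value above it. The means were -0.68 ± 0.18 (SD, n = 3) and 0.80 ± 0.31 (SD, n = 4), a difference of 1.48 that is given as a description. NUP210 made up 1.59%, 1.57% and 1.96% of the summed RPKM of the set in WT, and 4.37%, 4.21%, 3.97% and 6.32% in the clones. Its rank among the 32 members was 29, 28 and 22 in WT1 to WT3 and 6, 7, 8 and 3 in KO1 to KO4. Over all tested genes, 40.6% to 44.6% lay above NUP210 in the WT samples and 11.4% to 18.0% in the clones.

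The summed level of the other members overlapped between the groups. The summed RPKM of the 31 other members was 552, 554 and 500 in WT1 to WT3 and 561, 532, 608 and 544 in KO1 to KO4. WT3 was the lowest and KO3 the highest library. In the comparison of the 4 clones with WT, 0 of the 31 other members passed an adjusted p of 0.05 (limma), with 6 at an unadjusted p under 0.05, and 0 passed with voom on the worked-back reads. The background was 46 of 11154 tested genes, or 0.412%, with 1753 at an unadjusted p under 0.05. The median difference of the members was 0.14 with 20 of 31 above 0, beside a median of -0.02 and 47.0% above 0 over all tested genes. Without WT3 the members' median was 0.07, with 19 above 0.

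**Figure D2:**
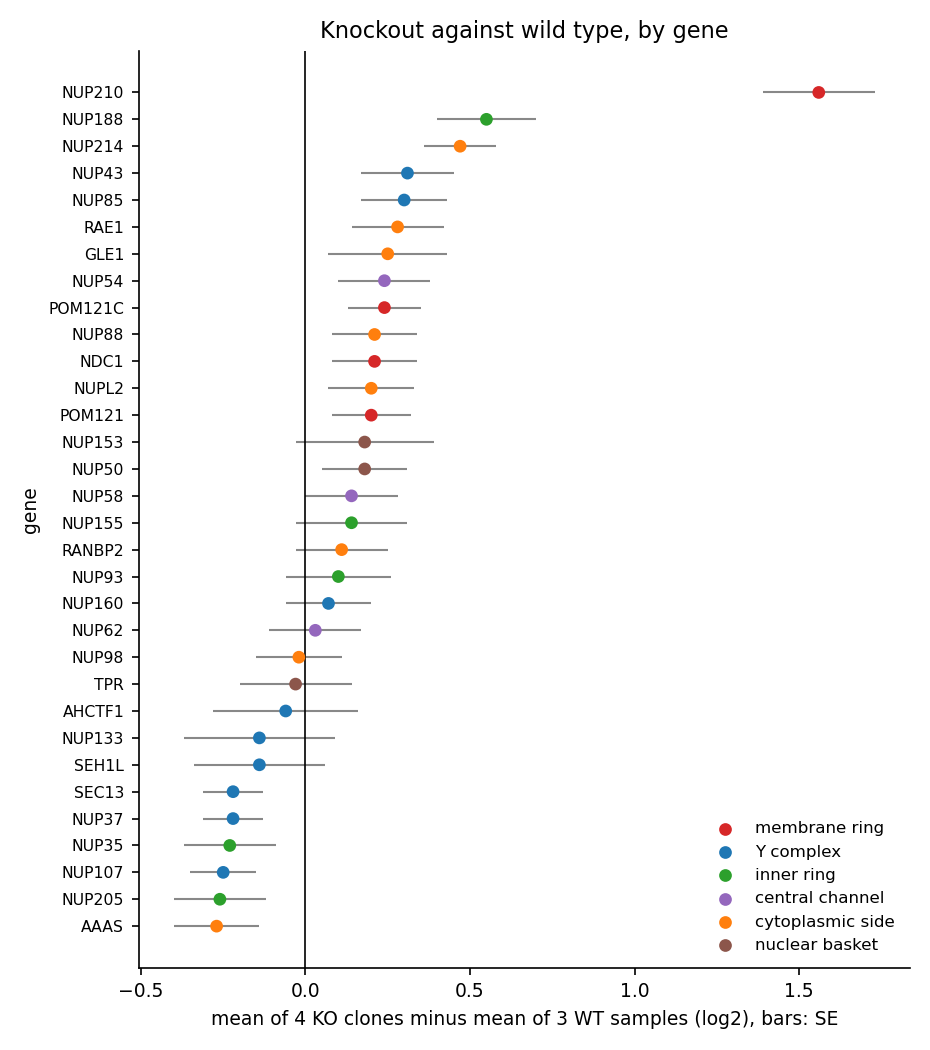
Mean difference between the 4 clones and the 3 WT samples for each member, in log2 units with its standard error. Members are ordered by this difference and coloured by role in the pore. NUP210 is at 1.56, and the other 31 members lie between -0.27 (AAAS) and 0.55 (NUP188).

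Counting libraries instead, 5 other members had all 4 clones above all 3 WT samples, where 8.88% of tested genes did, and 3 had all clones below, where 10.1% did. So 8 of 31 stood on 1 side of WT, where 19% of tested genes did, and the remaining 23 overlapped. The 5 higher members were NUP188, NUP214, NUP43, NUP54 and POM121C, and the 3 lower ones SEC13, NUP37 and NUP107. Of all members, NUP188, NUP43, NUP62, NUP88, NUP98, POM121 and POM121C (7 of 32) overlap another gene of the table and NUP210 does not; the counting was not stated to use strand, so reads of such pairs cannot be told apart. Levels follow by role.

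Of the membrane proteins, NDC1, which anchors the scaffold and helps to insert new pores, was at 5.29, 5.30 and 5.03 in WT and at 5.54, 5.22, 5.57 and 5.34 in KO1 to KO4. The groups overlapped through KO2, and the difference of 0.21 ± 0.13 (SE) did not pass the test (limma adjusted p = 0.462). POM121C, a close copy of POM121 that also sits in the pore membrane, was at 2.17, 2.07 and 2.11 in WT and at 2.27, 2.29, 2.49 and 2.36 in the clones. Its clones all lay above WT, by 0.24 ± 0.11 (SE) with an adjusted p of 0.354, and POM121 differed by 0.20 ± 0.12 (SE) with overlapping groups. Reads of POM121 and POM121C are hard to assign to 1 of the pair, and both overlap a further gene of the table, so these levels are uncertain.

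The Y complex, the outer scaffold, had 9 members and a median difference of -0.14, with 3 of them above 0. Centred on the median of neighbouring genes, as described further on, 6 of the 9 were above 0 with a median of 0.02. SEC13, which also coats vesicles of the secretory pathway, was at 4.90, 4.85 and 4.87 in WT and at 4.68, 4.69, 4.59 and 4.63 in KO1 to KO4. All clones were below all WT samples, by -0.22 ± 0.09 (SE) with a limma adjusted p of 0.285. NUP37 was at 4.71, 4.76 and 4.60 in WT and at 4.44, 4.46, 4.51 and 4.47 in the clones, -0.22 ± 0.09 (SE) with an adjusted p of 0.310. NUP107, needed to build the Y complex, was at 4.37, 4.52 and 4.43 in WT and at 4.16, 4.08, 4.26 and 4.23 in the clones, -0.25 ± 0.10 (SE) with an adjusted p of 0.283. In these 3 genes the clones lay close together and the gap to WT was small. NUP43 went the other way, at 3.83, 3.85 and 3.72 in WT and 4.32, 4.01, 3.86 and 4.24 in the clones (0.31 ± 0.14 SE, adjusted p = 0.333). KO3 was only just above the highest WT sample there.

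Other Y-complex members were spread over the clones. AHCTF1, also called ELYS, which brings the complex to chromatin after mitosis, was at 3.37, 3.43 and 3.12 in WT and at 2.75, 3.47, 3.62 and 3.15 in KO1 to KO4. NUP133 was at 3.67, 3.82 and 3.61 in WT and at 2.97, 3.96, 3.79 and 3.55 in the clones. In both genes KO1 was lowest, while KO2 and KO3 were within or just above the WT range. SEH1L, a subunit shared with a regulator of growth signalling, was at 3.42, 3.40 and 3.20 in WT and at 3.58, 2.79, 3.41 and 2.99 in the clones. KO2 and KO4 lay below WT and KO1 above. NUP160 and NUP85 differed by 0.07 ± 0.13 (SE) and 0.30 ± 0.13 (SE), with overlapping groups.

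In the inner ring, NUP188 had the largest difference of any member other than NUP210. It was at 4.47, 4.35 and 4.17 in WT and at 5.17, 4.75, 4.95 and 4.67 in KO1 to KO4, so that all clones were above WT. The difference of 0.55 ± 0.15 (SE), or 1.47-fold, had a limma adjusted p of 0.160. The gene that overlaps NUP188 is SH3GLB2. NUP205, its relative in the same ring, was at 5.92, 5.98 and 5.76 in WT and at 5.35, 5.58, 5.88 and 5.68 in the clones, -0.26 ± 0.14 (SE) with an adjusted p of 0.408. KO3 overlapped WT and the other 3 clones were below it. NUP93, NUP155 and NUP35, the remaining inner-ring members, differed by 0.10, 0.14 and -0.23 with overlapping groups.

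The central channel proteins NUP62, NUP54 and NUP58, which carry the repeats that form the barrier, had a median difference of 0.14. NUP54 was at 4.44, 4.49 and 4.32 in WT and at 4.62, 4.50, 4.96 and 4.53 in KO1 to KO4. Its clones were all above WT, KO2 by the smallest margin, and its difference was 0.24 ± 0.14 (SE) with a limma adjusted p of 0.436. NUP62 and NUP58 differed by 0.03 ± 0.14 (SE) and 0.14 ± 0.14 (SE) with overlapping groups.

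On the cytoplasmic side, where messenger RNA is released, 6 of 8 members were above 0 with a median of 0.21. NUP214, a filament base that binds the export receptor CRM1, was at 2.71, 2.56 and 2.44 in WT and at 3.12, 3.02, 2.94 and 3.09 in KO1 to KO4. All clones were above WT, by 0.47 ± 0.11 (SE) or 1.38-fold, with the lowest adjusted p of the 31 members (0.136, limma). GLE1, which activates the helicase that strips export proteins from messenger RNA, was at 4.04, 4.14 and 4.07 in WT and at 4.43, 4.61, 3.88 and 4.40 in the clones. KO3 was below WT and the other 3 clones above. AAAS, also called ALADIN, was at 3.86, 3.73 and 3.76 in WT and at 3.40, 3.39, 3.78 and 3.46 in the clones, -0.27 ± 0.13 (SE) with KO3 within the WT range. RAE1, NUP88, NUPL2, RANBP2 and NUP98 differed by 0.28, 0.21, 0.20, 0.11 and -0.02 with overlapping groups, and RANBP2 has close copies in the genome that can take its reads.

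The nuclear basket, the filaments on the inner face, comprised NUP153, TPR and NUP50. TPR, the basket's main coiled coil, was at 4.37, 4.44 and 4.39 in WT and at 3.97, 4.47, 4.70 and 4.36 in KO1 to KO4. KO1 was lowest and KO3 highest, with WT between them. NUP153 was at 4.61, 4.56 and 4.25 in WT and at 4.20, 4.72, 5.07 and 4.63 in the clones, again lowest in KO1 and highest in KO3. NUP50 differed by 0.18 ± 0.13 (SE) with overlapping groups.

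**Figure D3:**
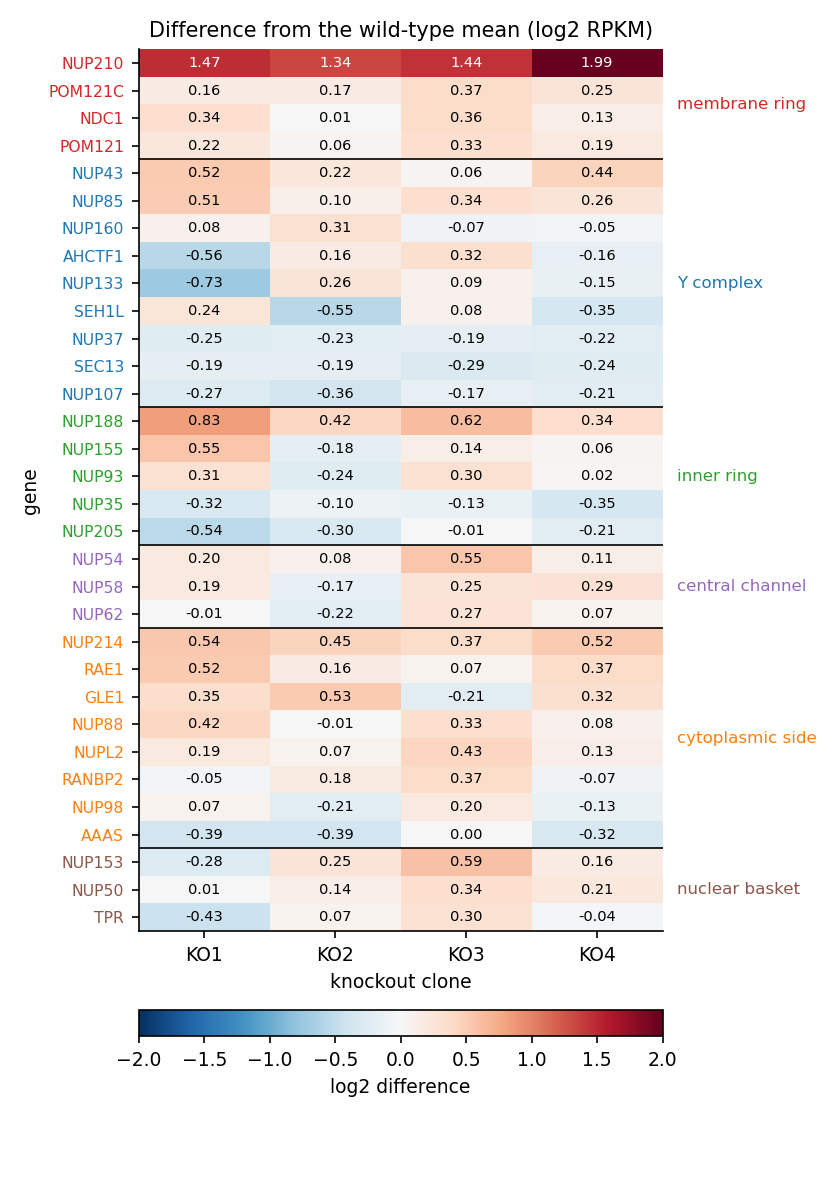
Difference of each clone from the WT mean for every member, in log2 units, grouped by role. NUP210 is between 1.34 and 1.99 in all 4 clones, whereas TPR, GLE1 and NUP133 change sign from clone to clone.

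Each clone was also set against WT by itself, where the 3 WT samples supplied the variance and a single library was taken to scatter as they do. These comparisons share the WT samples and are not independent of each other. KO1 had 13 of the 31 other members called, 8 higher and 5 lower, where 44.1% of all tested genes were called, 19.2% higher and 24.9% lower. KO2 had 5 called, 2 higher and 3 lower, where 33.5% of tested genes were, 15.5% higher and 18% lower. KO3 had 6 called, 6 higher and 0 lower, where 34.1% were, 14.2% higher and 19.9% lower. KO4 had 3 called, 3 higher and 0 lower, where 24.8% were, 10.4% higher and 14.4% lower. In each clone the members' share (41.9%, 16.1%, 19.4% and 9.68%) was below the share of all tested genes, and that difference was not tested. Without WT2 the counts fell to 6, 1, 1 and 0 in KO1 to KO4. Of the 11154 tested genes 3088, 1743, 1706 and 1153 were called then. Without WT3 the member counts were 18, 10, 10 and 9, where 5833, 4867, 4906 and 3972 of all tested genes were called. In KO1 without WT3 the members' share was thus above the share of all tested genes. Without WT3 the member calls were 3 higher and 7 lower in KO2, where all tested genes had 2284 and 2583. They were 4 higher and 5 lower in KO4, where all tested genes had 1757 and 2215. The p-values below compare 1 library with the WT samples and carry no error from clone to clone, which was larger than the WT spread in 90.4% of tested genes.

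In KO1, NUP188 was above WT by 0.83 (limma adjusted p = 0.00334), NUP155 by 0.55 (0.00826) and RAE1 by 0.52 (0.00789), and NUP43, GLE1, NUP214, NUP85 and NUP88 were called higher too. NUP133 was at -0.73 from WT (adjusted p = 0.00371), NUP205 at -0.54 (0.0103), AHCTF1 at -0.56 (0.0206) and TPR at -0.43 (0.0121), and AAAS was called lower too. In KO2, GLE1 was above WT by 0.53 (adjusted p = 0.0102) and NUP214 by 0.45 (0.0462), while SEH1L was at -0.55 (0.0196), AAAS at -0.39 (0.0326) and NUP107 at -0.36 (0.0414). SEH1L and NUP107 belong to the Y complex, and GLE1, NUP214 and AAAS to the cytoplasmic side. In KO3, NUP188 was above WT by 0.62 (adjusted p = 0.0150), NUP153 by 0.59 (0.0285) and NUP54 by 0.55 (0.0107), and NUPL2, NUP88 and POM121C were called higher by less. In KO4, NUP214 was above WT by 0.52 (0.0357), NUP43 by 0.44 (0.0263) and RAE1 by 0.37 (0.0432). NUP210 was 1.47, 1.34, 1.44 and 1.99 above WT in KO1 to KO4, beyond every one of these.

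The spread of the members among the clones was below that of the median gene. The median SD over the 4 clones was 0.20 for the 31 other members and 0.30 for all tested genes, and over the WT samples it was 0.10 for both. The SD among clones exceeded that among WT samples in 26 of 31 members (83.9%) and in 90.4% of tested genes.

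The differences of single clones went with position in the genome. For every member, the median difference of the other tested genes within 5 Mb was taken in the same clone. Over the 31 other members, this local median and the member's own difference had a Pearson r of 0.91, 0.79, 0.57 and 0.86 in KO1 to KO4 (Spearman rho 0.90, 0.76, 0.58 and 0.79). Over all 10451 genes with such a value, not matched to the members in level or spread, r was 0.26, 0.32, 0.32 and 0.26. These are descriptions across genes, which share libraries and in some cases windows: GLE1, NUP188 and NUP214 lie within 2.62 Mb of each other on chromosome 9, NUP210 and SEC13 are 3.10 Mb apart, and POM121 and POM121C are 2.61 Mb apart. The copy number of these regions was not analysed here, and its part in the values was not tested.

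The local medians of single members show this. Around NUP133, TPR and AHCTF1, all on chromosome 1, the local median in KO1 was -0.77, -0.62 and -0.67, beside the members' own differences of -0.73, -0.43 and -0.56. Around NUP188 it was 0.47, 0.31, 0.04 and 0.28 in KO1 to KO4, and around NUP214 it was 0.48, 0.33, 0.06 and 0.30. So the windows of both genes were high in KO1, KO2 and KO4 and near 0 in KO3. Around SEH1L the local median was 0.10, -0.34, -0.28 and -0.36. Once the local median was subtracted, the SD of the 31 members' differences went from 0.39, 0.26, 0.24 and 0.24 in KO1 to KO4 to 0.16, 0.16, 0.20 and 0.13. With every gene centred this way the difference between all clones and WT went from 0.55 to 0.27 for NUP188, from 0.47 to 0.18 for NUP214, from 0.31 to 0.14 for NUP43, from 0.24 to 0.11 for NUP54 and from -0.22 to -0.03 for NUP37. The median of the 8 cytoplasmic members went from 0.21 to 0.10 and that of the 3 basket members from 0.18 to 0.03. That of the membrane members other than NUP210 went from 0.21 to 0.17. Over all 31 other members the median went from 0.14 to 0.10, with 20 above 0 before and 24 after. POM121C went from 0.24 to 0.23, NUPL2 stayed at 0.20, and NUP58 went from 0.14 to 0.23. SEC13 was at -0.26 and NUP210 at 1.53, while NUP205 changed sign to 0.07. By clone, the members called were 1, 1, 3 and 0 in KO1 to KO4. They were SEC13, lower, in KO1 and again in KO2, and NUP188, NUP58 and NUPL2, higher, in KO3. Of the 10451 genes centred in the same way, 3238, 2736, 2507 and 1882 were called in KO1 to KO4.

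**Figure D4:**
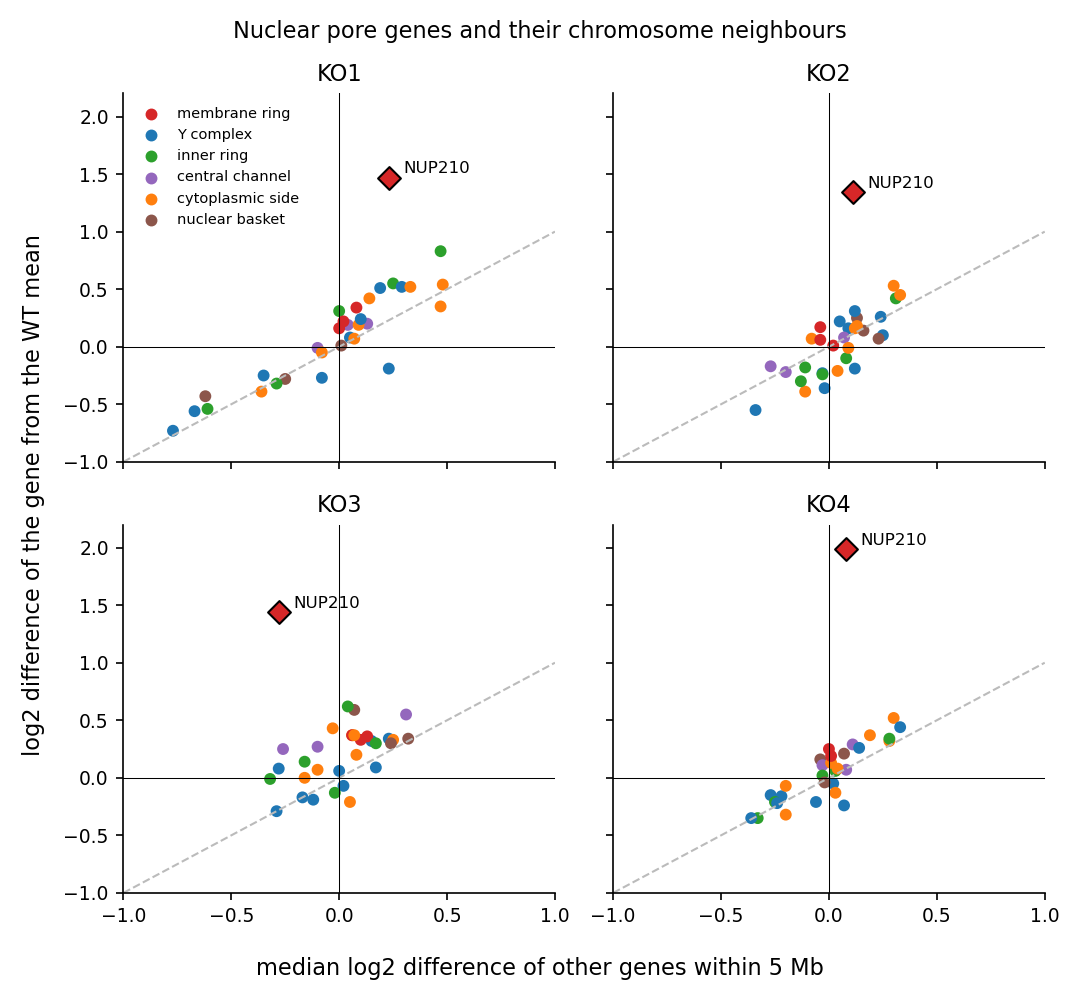
Difference of each member from WT against the median difference of the other tested genes within 5 Mb, in log2 units, in 1 panel per clone. The 31 other members follow the local median most closely in KO1 (r = 0.91), and NUP210 lies 1.23 to 1.91 above its local median in every panel.

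NUP210 stood apart from its surroundings in all 4 clones. Its local median was 0.23, 0.11, -0.28 and 0.08 in KO1 to KO4, and NUP210 was 1.24, 1.23, 1.73 and 1.91 above it. The other members lay between -0.42 and 0.57 of theirs. SEC13, on the same chromosome arm, was below its local median by the most in KO1 (-0.42) and in KO4 (-0.31).

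Within 1 Mb of the NUP210 start there were 11 other tested genes. In KO against WT 0 were called by limma, where 0.412% of all tested genes were, and 0 with voom. With 11 genes, 0 called is near that share. An unadjusted p under 0.05 was seen in 0, where 1753 of 11154 tested genes had one. The smallest limma adjusted p was 0.460. The groups overlapped for all 11, where 19% of tested genes had all clones on 1 side of WT. The mean differences of the 11 genes ran from -0.60 (HDAC11) to 0.26 (XPC, a DNA repair gene). HDAC11, a histone deacetylase whose start is 59.4 kb away, was at 1.26, 1.20 and 1.36 in WT and at 0.04, 1.46, -0.49 and 1.68 in KO1 to KO4. IQSEC1, at -137 kb on the other side, was at 2.80, 2.73 and 2.79 in WT and at 1.34, 3.03, 2.43 and 2.84 in the clones. HDAC11 was low in KO1 and KO3 only, and IQSEC1 in the same pair of clones, whereas NUP210 was high in all 4. The highest difference of any of the 11 neighbours was 0.60, 0.54, -0.11 and 0.41 in KO1 to KO4.

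**Figure D5:**
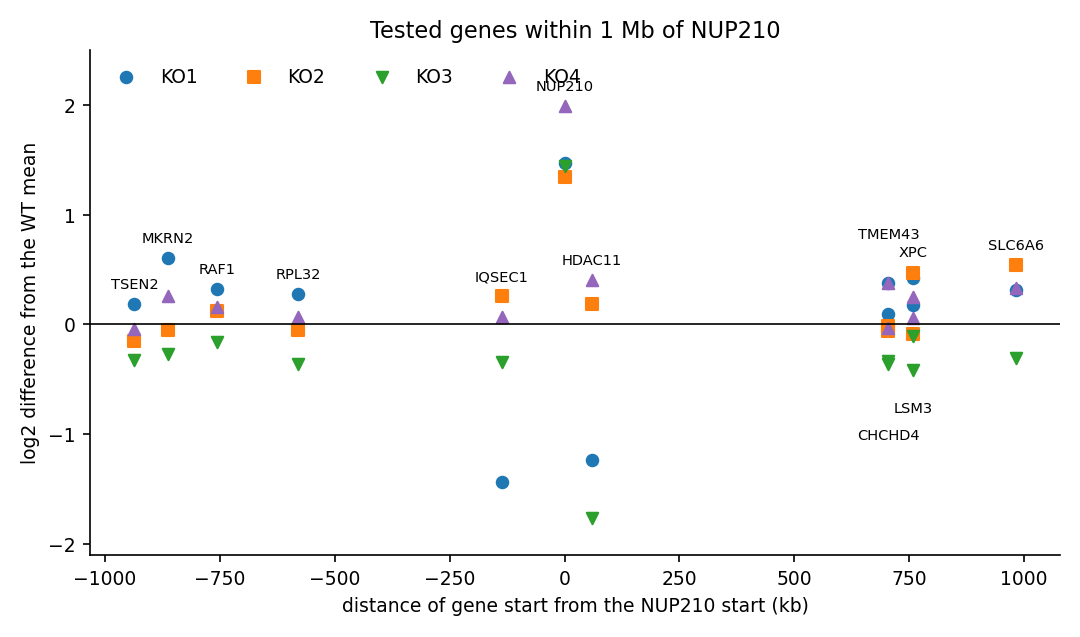
Difference of each clone from WT, in log2 units, for tested genes against the distance of their start from that of NUP210. NUP210 at distance 0 is 1.34 to 1.99 above WT, and the highest neighbour within 1 Mb is at 0.60.

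The tested genes whose levels followed NUP210 most closely over the 7 libraries were NRP2 (Pearson r = 0.988), DHX8 (0.986), CD70 (0.984), TMEM63B (0.983) and CHID1 (0.981), each on another chromosome. NRP2, a co-receptor for semaphorins and vascular growth factors, was at -1.28, -1.24 and -1.33 in WT and at 0.62, 0.36, 0.28 and 1.46 in KO1 to KO4. CD70, a ligand of the tumour necrosis factor family, was at 4.61, 4.72 and 4.72 in WT and at 5.58, 5.48, 5.37 and 5.66 in the clones. As with NUP210, KO4 was highest in both. Among the 31 other members r was highest for NUP214 (0.911), POM121C (0.850) and NUP43 (0.771), and lowest for SEC13 (-0.941), NUP37 (-0.914) and NUP107 (-0.816), with a median of 0.27. These are likenesses over 7 libraries chosen as the extremes, and no test is attached to them. They take in the gap between WT and KO that singled out NUP210. Within the groups NUP214 was highest in WT1 and KO1, and NUP210 in WT3 and KO4.

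The genes that carry cargo through the pore were described from further lists. In KO against WT, 0 genes of any list passed the limma test: 0 of 17 importins, 0 of 8 exportins, 0 of 8 genes of the Ran cycle, 0 of 20 mRNA export genes, 0 of 17 genes of the lamina and inner membrane and 0 of 13 of pore assembly. Of all tested genes 0.412% passed the limma test, and 1753 of 11154 had an unadjusted p under 0.05. Over the 6 lists 11 of 83 genes had such an unadjusted p, and 0 passed with voom. Their median differences were 0.04, 0.00, -0.19, -0.03, 0.10 and -0.03, beside -0.02 for all tested genes. RAN, the small GTPase that gives transport its direction, was at 7.57, 7.59 and 7.47 in WT and at 7.18, 7.18, 7.27 and 7.22 in KO1 to KO4. All clones were below all WT samples, as in 10.1% of tested genes, by -0.33 ± 0.09 (SE) with an adjusted p of 0.161. Of the 8 Ran-cycle genes 2 were above 0.

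XPO7, an export receptor, was at 4.70, 4.73 and 4.67 in WT and at 5.02, 4.89, 5.02 and 5.07 in the clones, with all clones above WT by 0.30 ± 0.09 (SE, limma adjusted p = 0.203). SEM1, a small subunit of the mRNA export complex at the basket and of the proteasome, was at 3.86, 4.10 and 3.97 in WT and at 2.97, 3.45, 3.22 and 3.60 in the clones. Its difference of -0.67 ± 0.17 (SE) had an adjusted p of 0.141, and its local median was also below 0 in each clone, from -0.73 to -0.17. BANF1, which bridges chromatin and the envelope, was at 5.89, 5.88 and 5.90 in WT and at 5.70, 5.41, 5.47 and 5.62 in the clones, -0.34 ± 0.10 (SE) with an adjusted p of 0.196. KPNA6, an importin alpha, was above WT in all clones by 0.32 ± 0.12 (SE, adjusted p = 0.272), and TOR1A, an ATPase of the envelope lumen, by 0.39 ± 0.14 (SE, adjusted p = 0.242). Around TOR1A the local median was 0.48, 0.32, 0.04 and 0.29 in KO1 to KO4, beside its own 0.41, 0.35, 0.14 and 0.64. None of the genes named here passed the threshold in the comparison of all clones. They were named for the smallest p of each list, and 19% of all tested genes had all clones on 1 side of WT.

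Calls in single clones were counted for each list. Importins had 5 higher and 2 lower in KO1, 2 higher and 3 lower in KO2, 4 higher and 0 lower in KO3, and 0 in KO4. Genes of the lamina and inner membrane had 6 higher and 3 lower in KO1, 3 and 4 in KO2, 3 and 2 in KO3, and 5 and 1 in KO4. Genes of mRNA export had 4 higher and 5 lower in KO1, 0 and 3 in KO2, 5 and 4 in KO3, and 1 and 3 in KO4. Exportins had 2 higher and 1 lower in KO1, 0 and 2 in KO2, 3 and 0 in KO3, and 1 and 0 in KO4. Genes of the Ran cycle had 1 higher and 2 lower in KO1, 0 and 3 in KO2, 1 and 1 in KO3, and 0 in KO4. Genes of pore assembly had 2 higher and 1 lower in KO1, 2 and 2 in KO2, 1 and 3 in KO3, and 0 and 1 in KO4. Over all tested genes 19.2% were called higher and 24.9% lower in KO1, and 15.5% and 18% in KO2. In KO3 these shares were 14.2% and 19.9%, and in KO4 10.4% and 14.4%.

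Marker lists of the line's own and of other cell types were read beside these results. Of 10 leukocyte markers 3 were in the table, with a summed level of 9.64 to 12.3 RPKM in WT and 0.675 to 3.18 RPKM in the clones, most of it CD3D in WT. CD3D was at 3.05, 3.29 and 3.39 log2 RPKM in WT1 to WT3 and at -7.75, -0.96, -2.51 and -0.47 in KO1 to KO4, and was called lower in each clone. PTPRC, the defining leukocyte marker, was not among the table's rows. The table held 4 of 10 markers of fibroblasts and endothelium, summing to 51.4 to 55.4 RPKM in WT and 20.4 to 70.2 RPKM in the clones, and of 11 thyroid and epithelial markers 6 were, with 488 to 583 RPKM in WT and 233 to 576 RPKM in the clones. The WT and clone sums of these 2 lists overlapped. In single clones 5 thyroid and epithelial markers were tested, of which 0 were called higher and 5 lower in KO1, 2 and 1 in KO2, 0 and 4 in KO3, and 0 and 4 in KO4. Of 3 tested fibroblast and endothelial markers 0 were called higher and 3 lower in KO1, 0 and 3 in KO2, 2 and 1 in KO3, and 0 and 2 in KO4. Of all tested genes 44.1%, 33.5%, 34.1% and 24.8% were called in KO1 to KO4. Of the 9 tested markers 0 passed the limma test between KO and WT, where 0.412% of all tested genes did. An unadjusted p under 0.05 was seen in 2 of the markers, and 0 passed with voom. The part of the markers in the NUP210 difference was not tested.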

How the data were processed

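RNA-seq libraries of 3 wild-type samples and 4 clones were analysed; the WT samples are biological replicates per the series text. The authors deposited log2 RPKM for 13142 genes, with no read totals. The submitters' processing notes name STAR 2.5.3a, HTSeq 0.11.2, Trim Galore 0.4.1, edgeR and build hg38. The annotation, prior count and strand setting are not given in the sources used here.

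Genes with log2 RPKM above 0 in at least 3 of 7 libraries were kept (11154, including all 32 members). KO against WT, each clone against WT, and late-stop against early-stop clones (split at residue 1500) were fitted over all kept genes with limma 3.58.1 in R 4.3.3, with a variance trend and Benjamini-Hochberg adjustment (adjusted p under 0.05), and the scripts were tested on simulated data. All 7 libraries entered the fits of KO against WT and of late-stop against early-stop clones. A fold change is on the log2 RPKM scale, with no pseudocount added.

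Positions came from GENCODE 29 (12310 of 13142 symbols matched). With its exon lengths and an assumed prior count of 0.25, between 83.6% and 92.0% of low values (below 40 reads) came out as whole reads within 0.03 reads, and the reads were used as an added alternative with voom, chosen after seeing the data. The estimated sizes were 56.4, 63.0 and 59.7 M reads for WT1 to WT3 and 49.0, 63.2, 44.0 and 70.4 M for KO1 to KO4. Local medians used the other tested genes within 5 Mb where at least 10 were present.

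The members, lists and tests were chosen with earlier results of these data known. Named genes were all members, ASH1L, tested genes within 1 Mb of NUP210, the 5 genes most correlated with it, and up to 4 genes with the smallest p of each further list. Alternatives were no filter, a stricter filter, quantile normalization, 1 RPKM added, no variance trend, centring on the local median, a replicate block and leaving out each library.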

Additional observations from a re-analysis of the deposited data

Results flagged for a closer look

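Of 67 named genes checked for a library apart from the rest of its group, 1 was found, and it was not a pore subunit. TNPO3, an import receptor for splicing factors, was at 5.41 log2 RPKM in KO1, and the nearest of the other 3 clones was at 5.81. That gap was 0.93 of the range over the 4 clones, above the limit of Dixon's outlier test for 4 values. TNPO3 averaged 6.04 ± 0.03 (SD, n = 3) in WT. The local median of genes within 5 Mb was -0.67 in KO1, beside a TNPO3 difference of -0.64. Chance alone passes this limit in about 1 of 20 groups.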

How the results depend on the processing

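The NUP210 difference of 1.56 ran from 1.42 (replicate block, and again without KO4) to 1.63 (without KO2) over the alternatives. NUP210 was singled out for being higher in every clone, so a kept sign is no support for its rise. Members other than NUP210 called between KO and WT, and between late-stop and early-stop clones, stayed at 0 under every alternative run; no replicate block was fitted for the latter. The count of all genes called between KO and WT, 46 as reported, was 30 with the stricter filter, 114 with quantile normalization, 75 with 1 RPKM added, 1 when centred on the local median and 0 with a replicate block. Leaving out single libraries gave 0 to 236: 0 without WT1, WT2 or WT3, 1 without KO4, 87 without KO3 and 236 without KO2. Between late-stop and early-stop clones all genes called were 0, but 293 without KO1 and 279 without KO2. The share of higher calls among the KO against WT calls was 41.3%, 56.1% with quantile normalization and 26.7% with 1 RPKM added; in KO1 it was 43.5%, and 53.7% with quantile normalization.

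Members called were 13 in KO1 (1 when centred on the local median, 6 to 18 with a library left out), 5 in KO2 (1 centred, 3 without a trend, 1 to 10), 6 in KO3 (3 centred, 3 without a trend, 1 to 10) and 3 in KO4 (0 centred, 1 without a trend, 0 to 9). The low ends came without WT2 and the high ends without WT3. The counts over all tested genes moved the same way, as given above for both and for centring. Without a trend 3437, 3430 and 2440 of all tested genes were called in KO2 to KO4. KO3 had 9 members with quantile normalization, where 3592 of all tested genes were called. KO1 had 14 members with quantile normalization, where 4816 of 11154 genes were called, and 14 with voom, where 4701 of 10563 were. Both of these member shares were above those of all genes.

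Of 480 member differences under alternatives, 21 changed sign, in 9 members, none past the threshold. Centred on the local median, AHCTF1 was 0.10, GLE1 -0.03, NUP133 0.02, NUP205 0.07, SEH1L 0.07 and TPR 0.02. With quantile normalization NUP98 was 0.04 and TPR 0.01, and with the replicate block NUP98 was 0.02. With a library left out, AHCTF1 ran from -0.19 to 0.11, NUP133 from -0.27 to 0.06, NUP160 from -0.01 to 0.12, NUP62 from -0.05 to 0.11, NUP98 from -0.09 to 0.05 and TPR from -0.13 to 0.11. The cause was not tested. After each group's mean was taken off every gene, the deviations of same-numbered WT and KO samples correlated at 0.06, 0.07 and -0.01. Only WT2 correlated most with the clone of its own number. Replicate numbers thus gave no clear pairing of the samples. Depth gives every member at least 1383 reads per library, so the spread between samples, with 1 library per clone, is what limits these comparisons.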

Other observations

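A pair of genes whose names resemble those of pore subunits fell outside the symbol rule. NUP62CL, named for its likeness to the end of NUP62, was at 1.48, 1.73 and 1.68 log2 RPKM in WT1 to WT3 and at 1.41, 2.57, 0.75 and 1.59 in KO1 to KO4. KO2 was highest and KO3 lowest, and the mean difference of -0.05 ± 0.38 (SE) had a limma adjusted p of 0.966. NUP50-AS1, a transcript antisense to the NUP50 region, was at 1.42, 2.07 and 2.03 in WT and at 1.30, 1.58, 1.78 and 1.36 in the clones. The groups overlapped, and the difference of -0.33 ± 0.21 (SE) had a limma adjusted p of 0.472.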
